A study of Mus musculus with 44 samples.

Results

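The genes described here encode the latent TGF-beta binding proteins (Ltbp1, Ltbp2, Ltbp3 and Ltbp4) and proteins of the microfibrils and elastic fibres on which they are laid down (Fbn1, Mfap2, Mfap4, Mfap5, Fbln2 and Eln). They were taken by symbol from the annotation of the array, which gave 12 of the 22690 probe sets to 9 of the 10 genes. No probe set is annotated to Fbn1, the fibrillin that forms the microfibril itself, so Fbn1 was not analysed here. Their probe sets (with the chromosome of the gene in RefSeq) were 1448870_at for Ltbp1 (chromosome 17), 1418061_at for Ltbp2 (12), 1418049_at for Ltbp3 (19), 1436665_a_at for Ltbp4 (7), 1417359_at for Mfap2 (4), 1424010_at for Mfap4 (11), 1449082_at for Mfap5 (6), 1423407_a_at for Fbln2 (6) and 1420855_at for Eln (5). For Ltbp3, Mfap5 and Eln, which have 2 probe sets each, the values are those of the probe set with the larger SD over the arrays unless the other is named. Left ventricular RNA of 44 mice was hybridised to Affymetrix 430A 2.0 arrays, 1 array per mouse. Transgenic mice (PKCε) expressed a constitutively active (A159E) rabbit PKCε in cardiomyocytes only, from the Myh6 promoter, on the FVB/N background, and the nontransgenic FVB/N mice came from Charles River. Each line received injections into the peritoneum of either nonimmune mouse IgG (10 mice in each line) or FG-3149, an antibody against CTGF, the product of Ccn2 (12 mice in each line). All mice received 30 mg/kg at 2 injections per week for 3 months from an age of 3 months, and tissue was taken at 6 months. Females and males numbered 7 and 3 in the FVB/N IgG group, 6 and 6 in the FVB/N FG-3149 group, 5 and 5 in the PKCε IgG group, and 6 and 6 in the PKCε FG-3149 group.

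TGF-beta is secreted in a latent complex in which its propeptide is bonded to a latent TGF-beta binding protein, and that protein anchors the complex to fibrillin microfibrils until integrins, proteases or thrombospondin release the ligand. Ltbp1, Ltbp3 and Ltbp4 bind latent TGF-beta, whereas Ltbp2 binds fibrillin and competes for its sites without carrying TGF-beta. The microfibril-associated proteins Mfap2 and Mfap5 attach to fibrillin, Mfap4 is a fibrinogen-related protein that binds elastic fibres, Fbln2 links fibrillin and basement membrane, and Eln is tropoelastin, the elastic core. In the heart these proteins are made mainly by fibroblasts and vascular cells, and their matrix is rebuilt when the ventricle remodels. CTGF is a matricellular protein that acts with TGF-beta in fibrosis.

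All levels below are log2 ratios of a probe set to its median over the 44 arrays, so a level can be compared between arrays but not between genes. Array medians of the ratio ran from 0.954 to 1.032. The atrial muscle level, which averages Myl4, Myl7 and Sln as log2 ratios, was above 4 on 10 arrays, of which 5 were FVB/N IgG females, 1 was an FVB/N FG-3149 male, 2 were PKCε IgG mice and 2 were PKCε FG-3149 females. The lung markers Sftpc and Scgb1a1 were both above 3 on PKCε IgG replicates 9 and 10. Among the high atrial arrays, Scgb1a1 without Sftpc was above 3 on FVB/N IgG replicates 4 (9.36) and 9 (5.08) and PKCε FG-3149 replicate 7 (4.74). These were kept in the runs that left out only the high lung arrays. FVB/N FG-3149 replicate 11 is labelled female, but its level of the Y-linked gene Uty was 3.63; the other arrays labelled female reached no higher than 0.023, and those labelled male lay at 3.78 or above. In FVB/N mice the mouse numbers ran from 420 to 443 under IgG and from 338 to 349 under FG-3149. In PKCε mice they ran from 192 to 362 under IgG and from 38 to 191 under FG-3149. Within each line these ranges did not overlap, though the PKCε ranges adjoin and each has gaps. What went with the range of mouse numbers cannot be told apart from the antibody. Whatever went with the source of the nontransgenic mice cannot be told apart from the transgene. The words "with the transgene" below therefore name the comparison of lines. Counts over the 9 genes that changed by more than 1.5 times without the high atrial or high lung arrays are given with and without them. The counts over pathway and marker lists are from all arrays only.

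Ltbp2, Fbln2, Mfap5 and Eln changed both with the transgene and under the antibody in transgenic mice. For Ltbp2 and Fbln2, the 250 bases upstream of their RefSeq start sites are shown, 5′ to 3′ on the strand of the gene (GRCm38.p6). They were read from the RefSeq table, which held 7 of the 10 genes but not Mfap4, Mfap5 or Eln. Ltbp2 lies on chromosome 12 (minus strand) and the bases shown are chr12:84876492-84876741; Fbln2 lies on chromosome 6 (plus strand) and the bases are chr6:91212514-91212763. Capitals mark matches on either strand to the GC box letters GGGCGG.
Ltbp2: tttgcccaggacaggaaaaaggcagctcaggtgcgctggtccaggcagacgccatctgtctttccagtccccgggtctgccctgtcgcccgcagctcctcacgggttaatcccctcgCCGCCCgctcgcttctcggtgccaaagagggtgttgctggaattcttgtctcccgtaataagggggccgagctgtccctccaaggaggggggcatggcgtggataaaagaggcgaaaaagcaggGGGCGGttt
Fbln2: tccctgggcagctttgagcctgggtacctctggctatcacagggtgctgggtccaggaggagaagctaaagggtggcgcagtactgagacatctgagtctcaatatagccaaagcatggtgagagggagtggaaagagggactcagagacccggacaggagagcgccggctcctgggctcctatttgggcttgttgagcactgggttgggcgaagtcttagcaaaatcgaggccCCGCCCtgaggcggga
Ltbp2 had 2 GC boxes, which begin 133 and 9 bases before the start, and Fbln2 had 1, which begins 16 bases before it. Of all 32851 promoter windows of 250 bases in the table, 32.7% held the GC box. Neither window held a TATA box (letters TATAAA, in 12.4% of windows). Neither held the AP-1 letters TGANTCA, which 6.75% of windows held, or the TEAD letters GGAATG, which 12.6% held. The SMAD letters CAGACA, found in 17.1% of windows, were also in neither, and the search covered both strands each time. A match is only a match of letters.

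In the comparison of PKCε IgG with FVB/N IgG mice, which asks how the transgenic ventricle differed under the control antibody, 8 of the 9 measured genes rose and 0 fell. Over all 12394 genes tested, 20.7% were called higher and 21.5% lower. The median difference was 0.99 on the log2 scale over the 9 genes and -0.05 over all genes. Ltbp2 rose most, 6.93-fold, and Ltbp1 was the gene that did not pass the test. Among the latent TGF-beta binding proteins, Ltbp2 ran from -1.57 through a median of -0.14 to 0.33 on the FVB/N IgG arrays and from 0.82 through 2.37 to 4.43 on the PKCε IgG arrays. Every transgenic array lay above every control array. The difference was 2.79 ± 0.29 (SE), with an adjusted p of 2.22e-10 in the limma fit. Ltbp4, which carries latent TGF-beta and takes part in elastic fibre assembly, ran from -0.93 (median -0.39) to 0.03 in FVB/N IgG mice and from 0.08 (median 0.58) to 1.07 in PKCε IgG mice, again without overlap, and differed by 0.96 ± 0.14 (adjusted p = 6.53e-07). Ltbp3, a second carrier of latent TGF-beta, had medians of -0.28 and 0.62 and differed by 0.99 ± 0.13. Only 5 of the 10 transgenic arrays lay above the highest control array for Ltbp3. Ltbp1, the widely expressed carrier, had medians of -0.06 and 0.01 and overlapped throughout, with a difference of -0.06 ± 0.07 (adjusted p = 0.542). Ventricular tissue was measured in bulk, so more cells of a type and more RNA per cell cannot be told apart.

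The genes of microfibril-associated proteins were higher as well. Mfap5 ran from -1.59 (median -0.58) to 0.33 in FVB/N IgG mice and from 0.17 (median 1.17) to 2.36 in PKCε IgG mice. The ranges met at 1 transgenic array, and 9 of 10 lay above the highest control. Mfap5 rose 3.98-fold (1.99 ± 0.18, adjusted p = 1.23e-11). Mfap4 ran from -1.90 (median -0.46) to 1.68 in FVB/N IgG mice and from -0.04 (median 1.37) to 3.12 in PKCε IgG mice. These ranges overlapped widely, with 5 of 10 transgenic arrays above the highest control, and the rise was 1.83 ± 0.31 (adjusted p = 4.86e-06). Mfap2 rose by 0.77 ± 0.16 (adjusted p = 0.000184), from a median of -0.13 to 0.59. Fbln2 ran from -0.80 (median -0.47) to 0.04 in FVB/N IgG mice and from 0.77 (median 1.16) to 1.51 in PKCε IgG mice. The groups were apart by a wide gap on every array, and Fbln2 had the lowest p of the 9 genes (1.57 ± 0.13, adjusted p = 5.27e-13). Eln had medians of 0.07 and 0.65, and only 2 of 10 transgenic arrays lay above the highest control. Its rise of 0.60 ± 0.22 (adjusted p = 0.029) was lost when any of FVB/N IgG replicate 5 (adjusted p = 0.0579), FVB/N IgG replicate 10 (0.0649), PKCε IgG replicate 6 (0.0979) or PKCε IgG replicate 9 (0.079) was left out. It was also not called without both arrays of high lung markers (0.51, adjusted p = 0.0857), with the Gapdh 3' minus 5' difference as a covariate (0.41, adjusted p = 0.254) or in males alone (0.18, adjusted p = 0.688). Fbln2, Ltbp2 and Ltbp4, 3 of the 9 genes, had no overlap between the groups, and 2.66% of all genes were higher on every transgenic array.

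**Figure D1:**
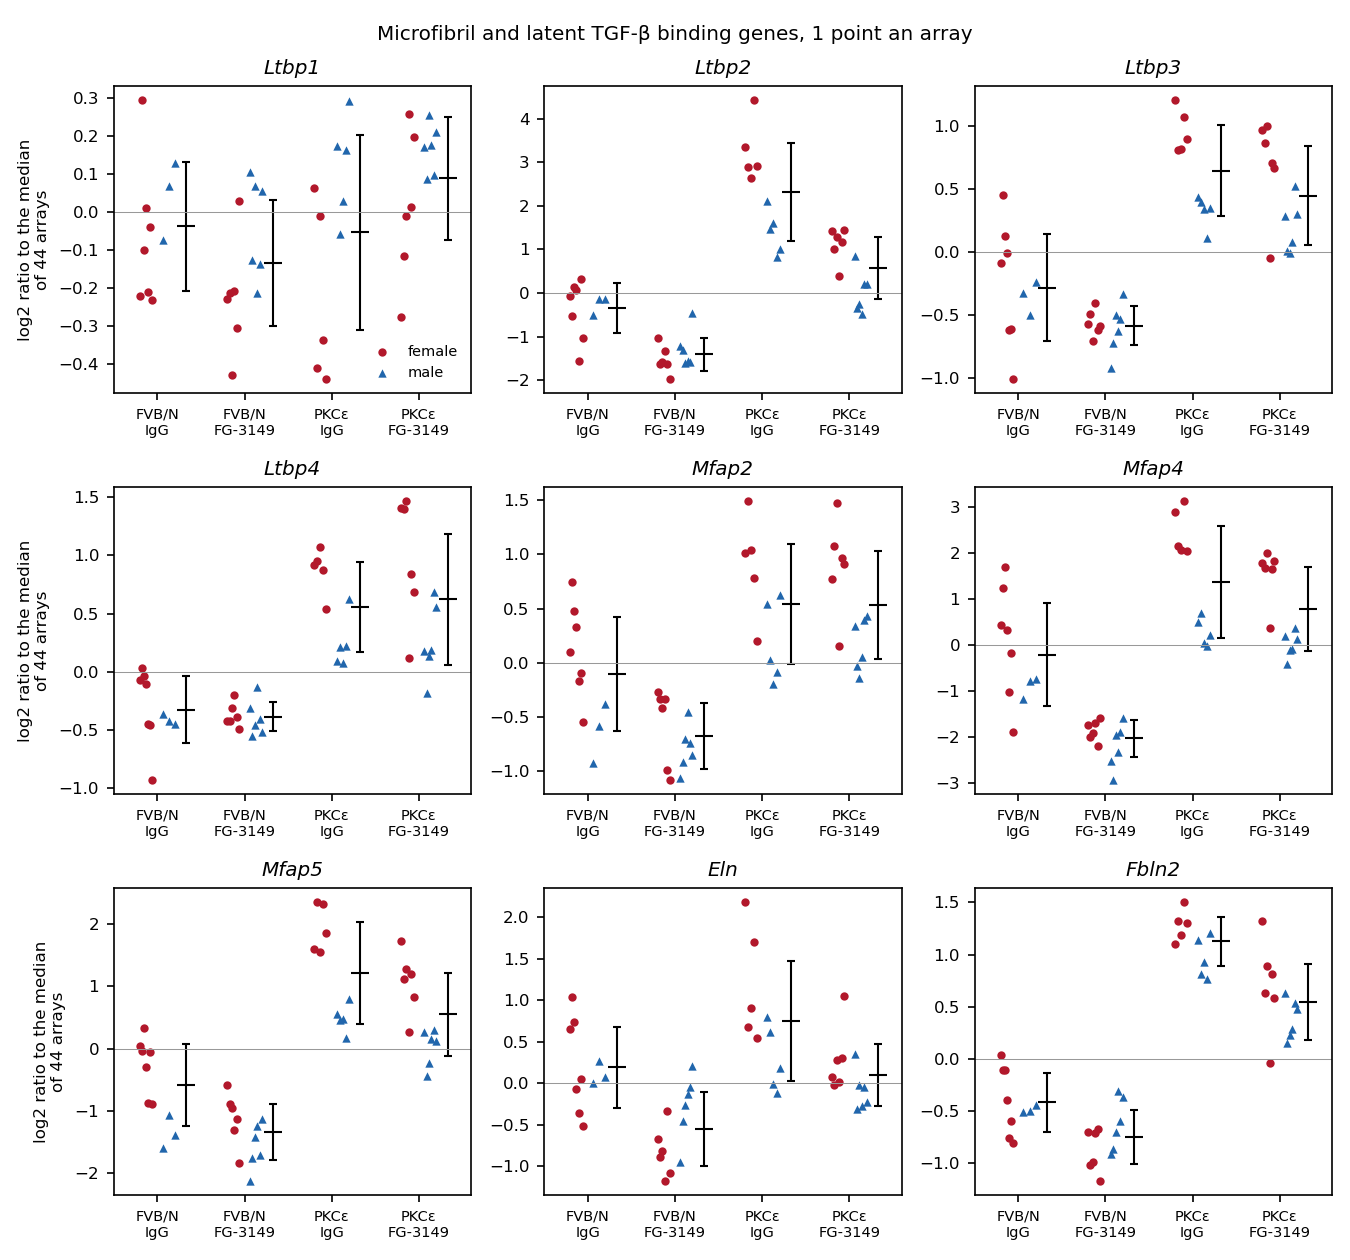
Log2 ratio to the median of 44 arrays for the 9 measured genes, 1 point per array (red circles females, blue triangles males) by group, with the mean and SD of each group as a black cross and bar. Each panel has its own vertical scale; PKCε IgG arrays of Fbln2, Ltbp2 and Ltbp4 lie above the FVB/N IgG arrays without overlap, while Ltbp1 spans less than 1 unit in every group.

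In the transgenic mice, the antibody comparison asks what blocking CTGF altered. Of the 9 genes, 4 fell (Ltbp2, Mfap5, Fbln2 and Eln) and 0 rose, where 3.74% of all genes were called lower and 5.08% higher. The median difference was -0.58 over the 9 genes and 0.02 over all genes. The levels of Ltbp2 under FG-3149 ran from -0.47 (median 0.62) to 1.44, below the PKCε IgG median of 2.37 on 12 of 12 arrays and below the lowest PKCε IgG array on 6. The fall was 3.35-fold (-1.74 ± 0.27, adjusted p = 6.65e-05). The Ltbp2 call was kept in each of the 18 alternatives run and in each of the 44 fits that left out 1 array. Fbln2 ran from -0.04 (median 0.56) to 1.32 under FG-3149, with 9 of 12 arrays below the lowest PKCε IgG array. It fell by 0.58 ± 0.12 (adjusted p = 0.0015), and that call was lost in 2 of 18 alternatives, which left out both the high atrial and the high lung arrays (-0.43, adjusted p = 0.13) or fitted females alone (-0.58, adjusted p = 0.0558).

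Mfap5 ran from -0.45 (median 0.28) to 1.73 under FG-3149 and overlapped the IgG group, with 9 of 12 arrays below its median. It fell by 0.66 ± 0.17 (adjusted p = 0.012). The Mfap5 call was lost without the 10 arrays of high atrial markers (-0.57, adjusted p = 0.0824), without the 2 arrays of high lung markers (-0.56, adjusted p = 0.0786) and without both sets (-0.44, adjusted p = 0.357). It was also lost with no sex term (-0.66, adjusted p = 0.135), after quantile normalization (-0.43, adjusted p = 0.156), in males alone (-0.46, adjusted p = 0.332) and at a threshold of 0.01, so it stood in 11 of 18 alternatives, and in each of the 44 fits that left out 1 array. Eln ran from -0.30 (median -0.00) to 1.06 and fell by 0.65 ± 0.21 (adjusted p = 0.0443). The Eln call stood in 8 of 18 alternatives and in 27 of 44 fits that left out 1 array, and its difference was -0.50 (adjusted p = 0.129) without PKCε IgG replicate 6 and -0.55 (adjusted p = 0.112) without PKCε IgG replicate 9. Leaving out any of PKCε IgG replicates 1, 2, 7, 8 or 10, or of PKCε FG-3149 replicates 1, 2, 3, 5, 6, 7, 8, 10, 11 or 12, also ended it, with adjusted p between 0.0501 and 0.0702. The other 5 genes did not pass the test: Mfap4 differed by -0.59 ± 0.29 (adjusted p = 0.219), Ltbp3 by -0.20 ± 0.13, Mfap2 by -0.01 ± 0.15, Ltbp4 by 0.06 ± 0.14 and Ltbp1 by 0.14 ± 0.07. For Ltbp4 the FG-3149 arrays reached higher (1.47) and lower (-0.18) than the IgG arrays, so the groups lay on top of each other. None of the 9 genes had separate ranges in the PKCε groups, and 0.0484% of all genes lay lower and 0.0645% higher on every FG-3149 array.

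In the FVB/N mice, 4 of the 9 genes also fell under FG-3149 (Mfap4, Ltbp2, Eln and Mfap5) and 0 rose, where 4.57% of all genes were called lower and 4.43% higher. The median difference was -0.46 over the 9 genes and 0.03 over all genes. On the FG-3149 arrays Mfap4 ran from -2.95 (median -1.95) to -1.60, with 8 of 12 below the lowest FVB/N IgG array. It fell 2.98-fold (-1.57 ± 0.29, adjusted p = 0.000412). Ltbp2 ran from -1.97 (median -1.56) to -0.45 under FG-3149 and fell by 0.94 ± 0.28 (adjusted p = 0.0266), Eln fell by 0.70 ± 0.21 (adjusted p = 0.0303) and Mfap5 by 0.56 ± 0.18 (adjusted p = 0.0358). For each of these genes the groups overlapped. Mfap2 (-0.46 ± 0.16, adjusted p = 0.0558), Fbln2 (-0.31 ± 0.12, adjusted p = 0.103), Ltbp3 (-0.24 ± 0.13), Ltbp1 (-0.14 ± 0.07) and Ltbp4 (0.02 ± 0.14) did not pass.

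Atrial markers moved with this comparison. Their mean level was 4.28 ± 3.89 (SD, n = 10) in FVB/N IgG mice, with a range from -1.16 to 8.47, and -0.55 ± 2.59 (n = 12) under FG-3149, and 3 of 3 atrial markers and 3 of 5 measured adipocyte markers were called lower. Mfap4 ran from -0.18 to 1.68 on the 5 FVB/N IgG arrays with atrial levels above 4 and from -1.90 to -0.74 on the other 5, so these sets of control arrays did not overlap. Mfap5 ran from -0.29 to 0.33 and from -1.59 to -0.87 in the same sets. Without the 10 arrays of high atrial markers, 0 of the 9 genes were called in the limma fit (3 at an unadjusted p under 0.05), and the differences were -1.08 for Mfap4 (adjusted p = 0.0751), -0.79 for Ltbp2 (0.369), -0.49 for Eln (0.347) and -0.29 for Mfap5 (0.704). Only 2 females and 3 males then remain in the FVB/N IgG group, and 217 genes in all were called. In a fit of males alone, whose 3 FVB/N IgG arrays were all at or below 4, Mfap4 differed by -1.31 (adjusted p = 0.0173) and was the gene called. From the means of each group and sex in the fit of all arrays, 6 of the 9 genes fell in females (background 4.78% lower) and 0 in males (background 0.234% lower), where Ltbp2 and Mfap4 were the 2 genes at an unadjusted p under 0.05. The females here include FVB/N FG-3149 replicate 11, whose Uty level goes against its label. These counts within a sex were not rerun without that array. Without the arrays of high atrial markers, 0 of the 9 genes were called in females, and none had an unadjusted p under 0.05 (23 of 12394 genes called), while in males Mfap4 was called (-1.37, adjusted p = 0.0061, 87 of 12394).

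**Figure D2:**
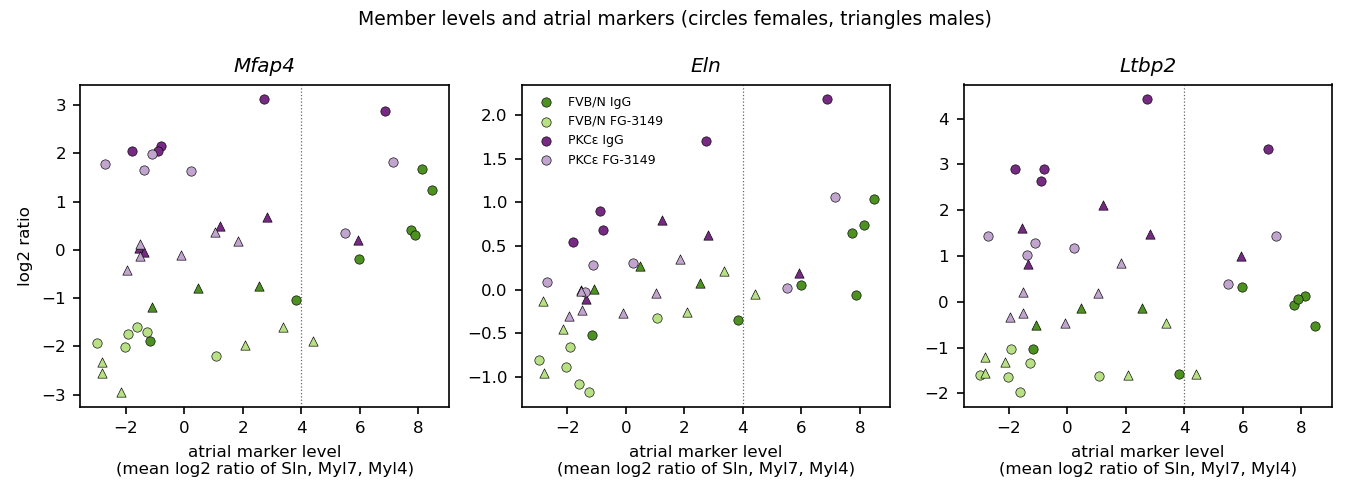
Log2 ratio of Mfap4, Eln and Ltbp2 against the atrial muscle level of each array (average log2 ratio of Myl4, Myl7 and Sln), coloured by group, with circles for females and triangles for males and a dotted line at 4. The 5 FVB/N IgG arrays right of the line hold higher Mfap4 levels (-0.18 to 1.68) than the other 5 (-1.90 to -0.74), while the FVB/N FG-3149 arrays lie at -1.60 or below.

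Single arrays also moved the count in FVB/N mice. The count of genes called was 1 without FVB/N FG-3149 replicate 6, FVB/N FG-3149 replicate 12 or FVB/N IgG replicate 7, and 2 without FVB/N FG-3149 replicates 7, 10 or 11 or FVB/N IgG replicates 1, 2 or 3. It was 3 without FVB/N FG-3149 replicate 1 or FVB/N IgG replicates 8 or 9, 5 without FVB/N FG-3149 replicates 4 or 8, FVB/N IgG replicates 5 or 6, PKCε FG-3149 replicate 3 or PKCε IgG replicate 7, and 6 without FVB/N IgG replicate 10. Mfap4 was called in each of the 44 such fits. Without replicate 11, the array whose Uty level goes against its label, Ltbp2 differed by -0.88 (adjusted p = 0.0514) and Mfap5 by -0.53 (adjusted p = 0.0641), while Mfap4 (-1.49, adjusted p = 0.00128) and Eln (-0.72, adjusted p = 0.0397) were called.

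Under FG-3149 itself, all 9 measured genes were higher in PKCε than in FVB/N mice, where 21.5% of all genes were called higher. Mfap4 was 7.02-fold higher (2.81 ± 0.28, adjusted p = 7.9e-11), Ltbp2 3.96-fold (1.99 ± 0.26) and Mfap5 3.71-fold (1.89 ± 0.17). Ltbp1 rose here by 0.22 ± 0.07 (adjusted p = 0.00588). Fbln2, Ltbp3, Mfap2, Mfap4 and Mfap5, 5 of the 9, had no overlap between the groups, and 2.69% of all genes were higher on every transgenic array. This comparison shares the FG-3149 arrays with the antibody comparisons above, so the values stand side by side and were not correlated.

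The test of whether the antibody effect differed between the lines called 0 of the 9 genes, where it called 3.86% of all genes. At an unadjusted p under 0.05, 4 genes differed: Mfap4 by 0.98 ± 0.41 (effect in PKCε minus effect in FVB/N, adjusted p = 0.206), Ltbp2 by -0.81 ± 0.39 (0.293), Mfap2 by 0.45 ± 0.22 (0.302) and Ltbp1 by 0.28 ± 0.10 (0.108). A fall called in 1 line only, such as that of Fbln2 or Mfap4, was therefore not shown to differ between the lines.

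**Figure D3:**
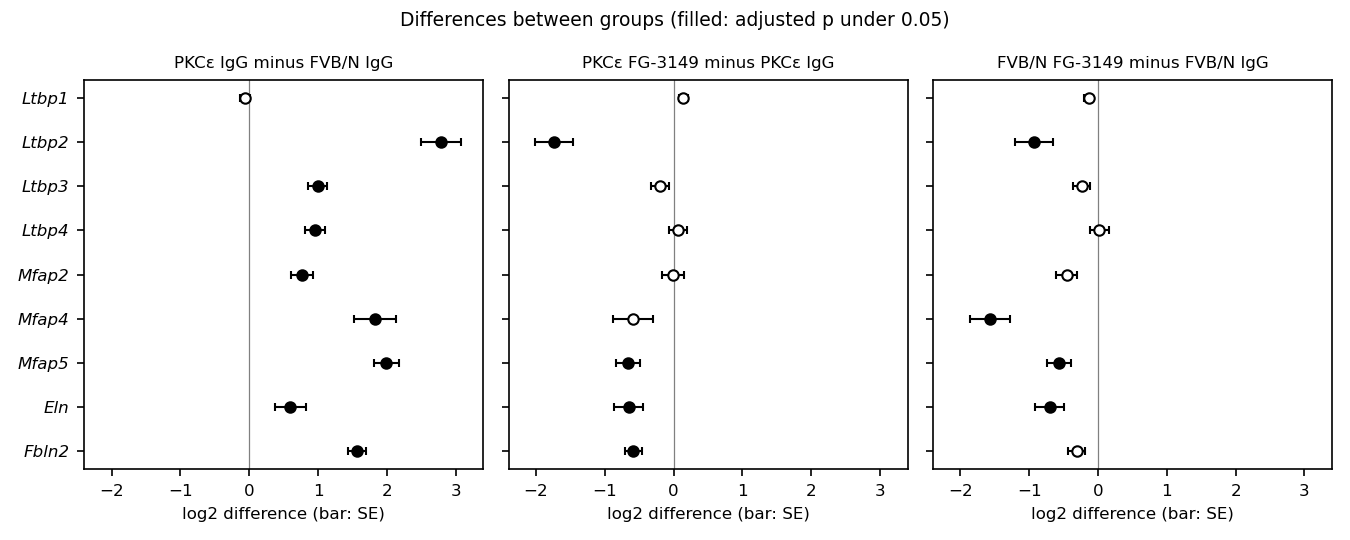
Log2 differences between groups for the 9 measured genes in 3 comparisons, with bars of 1 SE from the limma fit. Filled points have an adjusted p under 0.05: 8 genes in the comparison of lines under IgG, and 4 genes in each antibody comparison, all of the latter below 0.

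The order of the 4 group means was the same for 6 of the 9 genes (Ltbp2, Ltbp3, Mfap2, Mfap4, Mfap5 and Fbln2): lowest in FVB/N FG-3149, then FVB/N IgG, PKCε FG-3149 and PKCε IgG. The share of all genes with this order was not counted. These group means cover all arrays, among them the 5 FVB/N IgG females of high atrial markers, and are not adjusted for sex. For Ltbp2 these means were -1.41 ± 0.39 (SD, n = 12), -0.34 ± 0.58 (n = 10), 0.58 ± 0.71 (n = 12) and 2.32 ± 1.13 (n = 10). In the fit of all arrays, each neighbouring pair that was tested differed for Ltbp2 and Mfap5, but FVB/N IgG was not tested against PKCε FG-3149. Ltbp3, Mfap2 and Mfap4 did not pass the test between the PKCε groups, nor Ltbp3, Mfap2 and Fbln2 between the FVB/N groups. Without the high atrial arrays, Ltbp2 and Mfap5 were not called between the FVB/N groups, nor was Mfap5 between the PKCε groups. For Ltbp4 the PKCε FG-3149 mean (0.62 ± 0.56) was above the PKCε IgG mean (0.56 ± 0.39) by less than the spread. Eln in PKCε FG-3149 mice (0.10 ± 0.37) stood at the level of FVB/N IgG mice (0.19 ± 0.49), within the spread of both groups.

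Within the PKCε IgG group, 7 of the 9 genes were higher in females and Ltbp1 was lower, where 6.29% of all genes were called higher and 5.9% lower. Mfap4 ran from 2.04 (median 2.15) to 3.12 in the 5 females and from -0.04 (median 0.20) to 0.69 in the 5 males, a difference of 2.17 ± 0.39 (adjusted p = 0.000298). Ltbp2 ran from 2.63 (median 2.90) to 4.43 in females and from 0.82 (median 1.48) to 2.11 in males (1.83 ± 0.31, adjusted p = 0.000185). Mfap5 differed by 1.44 ± 0.24, Eln by 0.91 ± 0.27, Mfap2 by 0.72 ± 0.22, and Ltbp3 and Ltbp4 by 0.63 ± 0.18 each. The sexes did not overlap for Ltbp2, Ltbp3, Mfap4 and Mfap5, and 5.08% of all genes were higher on every female array. Fbln2 did not pass (0.31 ± 0.17, adjusted p = 0.192). The males of this group carried mouse numbers 192 to 196 and the females 322 to 362, so sex and run of mice cannot be told apart there, and 2 of the 5 females are the arrays of high lung markers. Females other than these 2 arrays also lay above the highest male for those 4 genes, which follows from the lack of overlap. The part of lung tissue in the difference was not tested. Without these 2 arrays, 5 of the 9 genes were called, all higher in females, against 376 of 12394 genes: Mfap4 (2.09, adjusted p = 0.00565), Ltbp2 (1.55, 0.00598), Mfap5 (1.34, 0.00432), Mfap2 (adjusted p = 0.0183) and Ltbp4 (0.74, 0.0459). Eln (0.96, adjusted p = 0.0732), Ltbp3 (0.62, 0.0934) and Ltbp1 (-0.24, 0.221) were then not called. The same 5 genes were called without the high atrial and high lung arrays together (501 of 12394 genes), and without the high atrial arrays alone 8 were called (1875 of 12394), with Fbln2 gained (0.42, adjusted p = 0.0447) and Eln lost (0.63, adjusted p = 0.0601). Fibroblast markers moved with this difference, with a mean level of 0.63 ± 0.09 (SD, n = 5) in females and 0.23 ± 0.15 (n = 5) in males and 3 of 10 called higher. Macrophage markers averaged 0.44 ± 0.31 and -0.08 ± 0.12, with 4 of 9 called higher, and 1 of 5 adipocyte markers was called higher. The Gapdh 3' minus 5' difference, which tracks RNA integrity, was 0.40 ± 0.32 in females and 0.19 ± 0.11 in males. With it as a covariate 7 of the 9 genes were called, against 1315 of 12394 genes (1511 without it). The part of these cell types in the sex difference was not tested. In FVB/N IgG mice, Mfap5 was the 1 gene called between the sexes (1.09 ± 0.26, adjusted p = 0.0257), where 1.18% of all genes were called. Without the arrays of high atrial markers it was not called (0.47, adjusted p = 0.799), nor was any other of the 9 genes in the limma fit (3 at an unadjusted p under 0.05), and 24 of 12394 genes were.

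Under IgG, 8 of the 9 genes were higher in PKCε than in FVB/N females (background 20.3%) and 6 in males (background 7.21%). The difference between the sexes in that rise was called for 0 of the 9 genes, where 0.0807% of all genes were called, and 2 were at an unadjusted p under 0.05. Ltbp2 rose by 3.62 ± 0.29 in females and by 1.66 ± 0.36 in males, a difference of 1.96 ± 0.46 (adjusted p = 0.0851). The other gene was Mfap4 (1.19 ± 0.57, adjusted p = 0.569). In the PKCε IgG group sex went with the run of mouse numbers. Sex and run therefore cannot be told apart in this test, or in that of the antibody effect between the PKCε sexes. Without the 2 arrays of high lung markers, the Ltbp2 difference was 1.67 (adjusted p = 0.29). Without the 10 arrays of high atrial markers, which include 5 of the 7 FVB/N IgG females, 4 genes were called in the test between the sexes: Mfap4 at 2.60 (adjusted p = 0.00122), Ltbp2 at 2.75 (0.00408), Ltbp3 at 1.04 (0.00408) and Ltbp4 at 0.98 (0.0256). Over all genes the count rose too, from 10 of 12394 to 343 of 12394. Without PKCε IgG replicate 8, Ltbp2 was called as well (2.11, adjusted p = 0.0478). Under FG-3149, 4 of the 9 genes fell in PKCε females (background 4.3%) and 0 in PKCε males (background 0.0242%, 3 at an unadjusted p under 0.05). Ltbp2 fell by 2.12 ± 0.30 in PKCε females (adjusted p = 2.14e-05), and in PKCε males the difference was -1.37 ± 0.30 (adjusted p = 0.0551). Without the high lung arrays Ltbp2 was the 1 gene called in PKCε females (-1.83, adjusted p = 0.00106), against 378 of 12394 genes. It was also the 1 gene called in PKCε males (-1.37, adjusted p = 0.0237), against 13 of 12394 genes. Both arrays left out were female, so the male difference itself did not change. In the fit of all arrays, the Ltbp2 effects in PKCε females and males differed by -0.75 ± 0.42 (adjusted p = 0.687). That test called 0 of the 9 genes, none of which reached an unadjusted p under 0.05, and 0.0161% of all genes.

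The second probe sets had differences of the same sign for Ltbp3 and Mfap5, and none was called for Eln. The other Ltbp3 probe set (1438312_s_at) rose by 0.85 ± 0.10 with the transgene under IgG, and it fell under FG-3149 by 0.39 ± 0.09 in PKCε mice (adjusted p = 0.00611) and by 0.39 ± 0.09 in FVB/N mice (adjusted p = 0.00541). Those falls were not called at the probe set with the larger SD. The other Mfap5 probe set (1418454_at) rose by 1.72 ± 0.18 and fell by 0.57 ± 0.17 in PKCε mice (adjusted p = 0.0319), with -0.34 ± 0.17 in FVB/N mice (adjusted p = 0.241). The other Eln probe set (1420854_at) stayed between -0.38 and 0.28 on the 44 arrays and differed by 0.04 ± 0.06, -0.08 ± 0.06 and 0.03 ± 0.06 in the comparisons of lines, of the antibody in PKCε and of the antibody in FVB/N mice, none of them called. The probe sets of Eln therefore disagree, and its changes rest on 1420855_at alone.

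The neighbours of these genes in the pathway were read from lists that hold none of them. Of 15 measured genes of TGF-beta ligands and their release, 9 rose and 2 fell in PKCε IgG mice against FVB/N IgG mice, and the median was 0.50. Over all genes, 20.7% were called higher and 21.5% lower there. The shares were 5.08% and 3.74% for the antibody in PKCε mice, and 4.43% and 4.57% in FVB/N mice. The same shares stand behind the list counts that follow. These list counts are from all arrays and were not rerun without the high atrial or high lung arrays. Without both sets, the calls over all 12394 genes went from 1093 to 129 for the antibody in PKCε mice. In FVB/N mice they went from 1116 to 232. The genes named are those of lowest p in a list, not all that were called. Itgb5, an integrin subunit that pairs with αv, rose by 1.27 ± 0.09, the ligand Tgfb2 by 1.77 ± 0.15, Bmp1, a protease that cuts latent TGF-beta binding proteins and procollagen, by 0.85 ± 0.09, and the gelatinase Mmp2 by 1.16 ± 0.13. Under FG-3149 in PKCε mice 2 of the 15 fell, the membrane protease Mmp14 by 0.55 ± 0.11 (adjusted p = 0.00135) and the ligand Tgfb3 by 0.60 ± 0.17 (adjusted p = 0.022), while Itgav (-0.27 ± 0.09) and Itgb5 (-0.25 ± 0.09) did not pass. In FVB/N mice 0 fell and 1 rose.

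Of 16 measured genes of elastic fibre and microfibril assembly, 13 rose and 1 fell with the transgene under IgG (median 0.80), 5 fell under FG-3149 in PKCε mice (median -0.30) and 2 fell in FVB/N mice (median -0.17). The large proteoglycan Vcan rose by 1.99 ± 0.18 and fell by 0.82 ± 0.18 under the antibody. Emilin1, a glycoprotein between elastin and microfibrils, rose by 1.25 ± 0.12 and fell by 0.41 ± 0.11. Of the lysyl oxidase family that crosslinks elastin and collagen, Loxl3 rose by 1.32 ± 0.14 and fell by 0.78 ± 0.13, and Loxl1 rose by 1.30 ± 0.14 and fell by 0.45 ± 0.13. Of 16 measured genes that respond to TGF-beta, 11 rose and 1 fell with the transgene (median 0.72), and 5 fell under FG-3149 in PKCε mice (median -0.28) and 4 in FVB/N mice (median -0.43). The matricellular gene Postn rose by 2.29 ± 0.24 and fell by 1.01 ± 0.23, the protease inhibitor Timp1 rose by 2.11 ± 0.27 and fell by 1.30 ± 0.26, and Pmepa1, a feedback inhibitor of TGF-beta signalling, rose by 1.24 ± 0.11 and fell by 0.47 ± 0.11. The collagen genes Col1a2 and Col3a1 fell by 0.63 ± 0.16 and 0.81 ± 0.19 under the antibody in PKCε mice. Ccn2, which encodes the target of FG-3149, rose by 0.74 ± 0.23 with the transgene and differed by -0.35 ± 0.21 (adjusted p = 0.36) under the antibody in PKCε mice.

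Fibroblast markers moved with the transgene, as 8 of 10 were called higher under IgG. Their mean level was -0.24 ± 0.35 (SD, n = 10) in FVB/N IgG, -0.52 ± 0.16 (n = 12) in FVB/N FG-3149, 0.43 ± 0.24 (n = 10) in PKCε IgG and 0.30 ± 0.25 (n = 12) in PKCε FG-3149 mice. Mmp2 and Col1a1 of this list, and Acta2 and Tagln of the smooth muscle list, are also in the pathway lists. Under FG-3149, 1 of the 10 was called lower in each line. Of 9 smooth muscle markers 3 were higher and 2 lower with the transgene, and of 9 macrophage markers 1 was higher. Of 5 measured adipocyte markers 4 were lower (median -1.25), as were 4 of 9 ventricular cardiomyocyte markers, and 1 of 8 endothelial markers was higher. The 3 atrial markers had mean levels of 4.28 in FVB/N IgG and 1.32 in PKCε IgG mice. None of the 3 was called over both sexes, and 3 of 3 were called lower in females. The difference between 3' and 5' control probe sets of Gapdh averaged 0.30 ± 0.25 in PKCε IgG mice against 0.04 ± 0.11 in PKCε FG-3149, -0.04 ± 0.08 in FVB/N IgG and -0.13 ± 0.20 in FVB/N FG-3149 mice. The part of these cell types in the changes was not tested; with the Gapdh difference as a covariate, Ltbp2 differed by 2.63 with the transgene and by -1.62 under the antibody in PKCε mice, both called. With that covariate the count of genes called was 7 with the transgene under IgG, where Eln was lost, and 3 under the antibody in PKCε mice, where Eln was lost as well (-0.51, adjusted p = 0.262). The genes called over all 12394 went from 5235 to 3881 with the transgene and from 1093 to 480 in the antibody comparison.

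**Figure D4:**
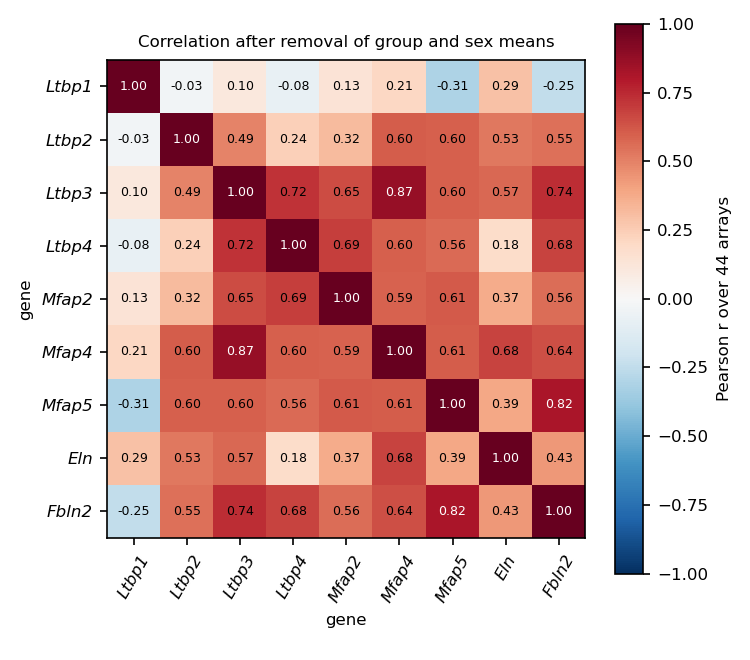
Pearson correlation between pairs of the 9 genes over 44 arrays, after the mean of each group and sex was removed from every gene, with the colour scale from -1 to 1. Ltbp3 and Mfap4 (0.87) and Fbln2 and Mfap5 (0.82) vary most alike, and the row of Ltbp1 holds values between -0.31 and 0.29.

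When the mean of each group and sex was removed, the arrays still varied together for most of these genes. Ltbp3 and Mfap4 had a Pearson correlation of 0.87 and Fbln2 and Mfap5 of 0.82 over the 44 arrays, while Ltbp1 ran from -0.31 to 0.29 with the other genes. Ltbp4 with Eln (0.18) and Ltbp4 with Ltbp2 (0.24) were low among the rest. With the mean fibroblast marker level, the genes ran from 0.61 (Ltbp2 and Eln) to 0.85 (Ltbp3), apart from Ltbp1 (0.05). With the macrophage level they ran from -0.06 (Ltbp1) to 0.73 (Mfap5), and with the atrial level from 0.01 (Ltbp4) to 0.70 (Eln). These are descriptions, since all genes of an array share its tissue piece, RNA and hybridisation. Over all 12394 genes, the ones most like each gene by the same measure were, for Ltbp2, Postn (0.77), Itgbl1 (0.75) and Nupr1 (0.75). For Fbln2 they were Pcolce (0.90), which enhances procollagen processing, Serpinf1 (0.89) and the TGF-beta receptor gene Tgfbr2 (0.86). For Mfap5 they were Fstl1 (0.89), Vcan (0.89) and Anxa2 (0.87), and for Mfap4 they were Gpx3 (0.89), the integrin gene Itgav (0.88) and Npdc1 (0.87). Ltbp3 was most like Crtap (0.93), Lrp1 (0.91) and Mxra8 (0.90), and Ltbp4 most like Bcl7c (0.86), Gnai2 (0.85) and Rac1 (0.83). Mfap2 was most like Rcn3 (0.77), Mmp2 (0.77) and Vkorc1 (0.74), Eln most like Ncam1 (0.80), Procr (0.78) and Sfrp2 (0.78), and Ltbp1 most like Ppl (0.69), Mapk10 (0.66) and Epha4 (0.64).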

How the data were processed

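Total RNA (250 ng) from the left ventricle of 44 mice was hybridised to Affymetrix 430A 2.0 arrays. Per the series' design text and the submitters' processing notes, the authors summarised probe sets by GCRMA, whose version is not stated there, and set the median of every probe set over the arrays to 1 in GeneSpring GX 7.3.1. The deposited values are therefore linear ratios, from 0.01 to 1104, without a signal over background. The genome build of the annotation is not given in the sources used here. The number of arrays limits the precision, and 0 values of the 9 genes stood at the lowest ratio.

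Tests used the log2 of the deposited ratios. Probe sets were named from the array annotation: 20393 had 1 gene, 691 several and 1606 none. Each of 12394 genes was represented by the probe set that varied most (SD over the 44 arrays). Groups were compared with limma 3.58.1 (lmFit and eBayes, R 4.3.3) in 1 fit with a term for sex, and sex differences from 8 means of group and sex. Tests were two-sided, with Benjamini-Hochberg adjusted p-values across the 12394 genes and a call at an adjusted p under 0.05. Other probe sets were tested over all 22690. The test was tried on simulated data. Arrays are separate mice by the labels. The genes, lists and tests were chosen with earlier results of these data known. Named beside the 10 genes were the 4 genes of lowest p per list in the comparison of lines under IgG and in that of the antibody in PKCε mice, the 3 genes most correlated with each gene, and Ccn2. Centred array medians, quantile normalization, a pseudocount of 0.1, a filter on low SD, averaged or all probe sets, robust and trended eBayes, array weights, no sex term, 1 sex, only the groups compared, a replicate block, a threshold of 0.01 and leaving out each array were tried. Added after seeing the data were the Gapdh 3' minus 5' covariate and runs without arrays of high atrial or lung markers. Promoter sequences are those of RefSeq (GRCm38.p6).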

Additional observations from a re-analysis of the deposited data

Results flagged for a closer look

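Dixon's criterion was applied to 81 sets of 5 to 10 arrays, each of 1 gene in 1 group or 1 sex of a group. In 7 of them an array stood apart from the rest. The criterion flags about 1 in 20 independent sets by chance, but these sets share arrays and the genes vary together. The whole groups of 12 arrays and the 3 FVB/N IgG males were not examined. In PKCε FG-3149 females, replicate 7 was low for Ltbp3 (-0.048, next array 0.67) and for Mfap4 (0.35, next 1.64), and replicate 9 was high for Eln (1.06, next 0.30). Both are among the arrays with atrial markers above 4. In FVB/N FG-3149 males, replicate 9 was high for Ltbp2 (-0.45, next -1.21). In PKCε IgG males, replicate 4 was low for Ltbp3 (0.12, next 0.35) and replicate 5 was high for Ltbp4 (0.62, next 0.22). In the FVB/N IgG group, replicate 10 was low for Ltbp4 (-0.93, next -0.46). The causes were not tested.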

How the results depend on the processing

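Of the counts over the 9 genes, that of the comparison of lines under FG-3149 ran from 8 to 9 and that under IgG from 7 to 8 over the alternatives run. The count for the antibody in PKCε mice was 4 and became 2 at a threshold of 0.01, with no sex term, after quantile normalization, in females only, in males only, without the arrays of high atrial markers or without those of high lung markers, and 1 without both sets. It was 3 with the Gapdh covariate and 5 with only the groups compared, where Mfap4 was gained (-0.59, adjusted p = 0.0477). Over all 12394 genes, the calls for the antibody in PKCε mice went from 1093 to 528 without the high atrial arrays. They were 440 without the high lung arrays and 129 without both sets. In females only they were 808, in males only 57, with no sex term 836 and after quantile normalization 726. The count for the antibody in FVB/N mice was 4 and became 2 after quantile normalization, 1 in males only or at a threshold of 0.01, and 0 without the arrays of high atrial markers, with or without those of high lung markers. It was 3 with no sex term or a pseudocount of 0.1, and 5 with array weights, a filter on low SD or the Gapdh covariate, each of which gained Mfap2. Over the fits that each left out 1 array it ran from 1 to 6. The count of genes whose line difference depended on sex was 0 and became 4 without the arrays of high atrial markers, again with or without those of high lung markers, where the genes called over all 12394 went from 10 to 343 and, without both sets, to 100. It ran from 0 to 1 over the fits that left out 1 array. The tests of the antibody effect between lines and between sexes in PKCε mice called 0 in every alternative run. The comparisons within 1 sex or 1 group were rerun with the Gapdh covariate and without the high atrial and lung arrays only. The count between the sexes in PKCε IgG mice went from 8 to 5 without the high lung arrays, alone or with the atrial ones, and that in FVB/N IgG mice from 1 to 0 without the high atrial arrays. Without those atrial arrays the antibody count went from 6 to 0 in FVB/N females, from 0 to 1 in males of either line, and from 4 to 2 in PKCε females, and without the high lung arrays to 1 in PKCε females and in PKCε males. Over all 12394 genes, 783 were called in PKCε females and 17 in PKCε males without the atrial arrays. Without the lung arrays these were 378 and 13. No called value changed sign. Fewer arrays remain in the runs that leave arrays out, and otherwise the cause was not tested. The ratios carry no signal over background, so which low probe sets are limited by it is unknown.

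Replicate numbers shared between groups do not pair the mice. Over 62 same-number pairs the correlation of deviations had a median of -0.02 (range -0.26 to 0.23), 7 pairs were above 0.1, and 3 of the 44 arrays correlated best with their own number. With the replicate block, the counts were 8 for the line difference under IgG, 3 for the antibody in PKCε mice, 3 for the antibody in FVB/N mice and 1 for the dependence of the line difference on sex (Ltbp2, 2.78, adjusted p = 0.00349).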
